A study of Mus musculus with 12 samples.

Results

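The CpG-dense regions described here were those of the authors' liver tumor list that held 10 or more CpG sites. They numbered 203 of the 1547 tumor regions, and of the 1711 regions in all 3 deposited lists. The number of CpG sites alone chose them, without any methylation value. Every region on the tumor list had, however, already been selected by the authors as different between tumors of an arsenite and a control line. The smallest listed difference was 20.0003 percentage points, from which a minimum of 20 is inferred, as no source used here states one.

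The series profiled DNA methylation by reduced-representation bisulfite sequencing (RRBS) in liver of male C3H/HeN mice aged 74 weeks. RRBS cuts DNA with MspI at CCGG and reads the short fragments after bisulfite conversion, so it covers mostly CpG-rich sequence. The mice were the second generation (F2) of a line whose F1 mice had been exposed to arsenite before birth (AA) or of a control line (CC). The tissue was normal liver (N), non-tumor tissue (Tn) or tumor (Tt).

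The tumor list compared 3 AATt samples, tumors of the arsenite line, with 3 CCTt samples, tumors of the control line. The CCTt samples, and the CCN samples of normal control liver, belong to an earlier deposit and were not analysed here. The series itself holds AAN, AATn, AATt and CCTn with 3 samples each. No further allele or agent is named for either line, and no label states if the 3 samples of a group are 3 mice. The deposited lists give 1 difference per region and no value per sample, so no difference here carries a replicate error, and the read depth is unknown here. No source used here defines the sign. Positive differences are taken to mean more methylation in the arsenite line, and every direction turns over if the sign runs the other way. In bulk tissue a change in the mix of cell types and a change of methylation within cells cannot be told apart.

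Methylation in mammals sits mainly on the cytosine of CpG dinucleotides. Most of the genome is poor in CpGs and highly methylated, while CpG islands, the dense stretches at many promoters, are usually unmethylated. Tumors commonly gain methylation at some islands and lose it across CpG-poor sequence, and a methylated promoter island usually goes with a silent gene. A further class of dense regions is methylated on a single parental copy and controls imprinted genes.

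Sequence was at hand for 13 of the 203 regions, those that overlapped a RefSeq promoter window of GRCm38.p6, a patch release of the assembly that mm10 names. Such a window runs from 250 bases before to 50 bases after a gene's start, on the strand of the gene. The stretches below, 5′ to 3′, are the parts of the regions that lie inside their windows, with every CG in capitals. They were chosen to show what a dense region looks like in either direction, at and away from a listed start site.

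2210016F16Rik: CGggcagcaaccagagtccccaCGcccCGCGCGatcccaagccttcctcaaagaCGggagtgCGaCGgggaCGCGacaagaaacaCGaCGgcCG
Tmem54: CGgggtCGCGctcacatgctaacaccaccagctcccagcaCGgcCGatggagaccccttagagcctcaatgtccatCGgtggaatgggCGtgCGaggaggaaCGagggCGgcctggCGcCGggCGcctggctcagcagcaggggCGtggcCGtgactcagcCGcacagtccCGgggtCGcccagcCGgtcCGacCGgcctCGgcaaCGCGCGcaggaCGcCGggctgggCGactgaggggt
Zfp263: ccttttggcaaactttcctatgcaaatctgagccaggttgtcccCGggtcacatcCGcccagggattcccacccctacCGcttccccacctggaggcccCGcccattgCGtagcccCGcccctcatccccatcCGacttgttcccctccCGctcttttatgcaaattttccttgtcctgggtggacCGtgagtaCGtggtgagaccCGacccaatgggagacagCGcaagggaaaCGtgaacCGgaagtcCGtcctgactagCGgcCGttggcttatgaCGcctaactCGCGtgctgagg
Ccdc110: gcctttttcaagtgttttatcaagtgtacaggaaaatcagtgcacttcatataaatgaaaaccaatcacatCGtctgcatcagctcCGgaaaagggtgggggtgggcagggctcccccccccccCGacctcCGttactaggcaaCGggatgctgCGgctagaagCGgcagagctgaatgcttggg
Henmt1: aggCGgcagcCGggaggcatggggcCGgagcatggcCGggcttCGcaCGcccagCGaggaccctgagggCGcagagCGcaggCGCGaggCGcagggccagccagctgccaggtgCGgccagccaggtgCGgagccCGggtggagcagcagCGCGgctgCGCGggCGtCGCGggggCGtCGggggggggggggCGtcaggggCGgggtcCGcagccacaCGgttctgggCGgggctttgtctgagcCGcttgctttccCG
Usp20: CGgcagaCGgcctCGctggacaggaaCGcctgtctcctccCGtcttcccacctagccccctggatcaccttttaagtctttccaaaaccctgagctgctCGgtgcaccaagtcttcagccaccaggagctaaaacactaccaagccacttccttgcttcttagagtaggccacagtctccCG
Zfp329: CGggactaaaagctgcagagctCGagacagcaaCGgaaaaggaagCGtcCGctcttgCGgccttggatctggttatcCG

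The first stretch is the whole region listed for 2210016F16Rik, on chromosome 13 from 58385277 to 58385370, minus strand. Its 94 bases hold 13 CG, and the authors' deposited table gave it 25 CpG sites. In all 10 regions of the 3 lists that lay wholly inside a promoter window, the listed number exceeded the CG count of the reference and was at most 2 per CG. The listed sites were thus counted on both strands there, and a region of 10 listed sites can hold fewer than 10 CpG pairs. The Usp20 stretch, chromosome 2 from 30995695 to 30995876, holds 7 CG for 12 listed sites and lies inside the promoter window of Gm39786 on the minus strand. The Zfp329 stretch, chromosome 7 from 12803710 to 12803788, holds 7 CG for 11 listed sites in the window of Zscan18, also on the minus strand.

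The other 4 stretches lie on plus strands and belong to regions across a start site. Tmem54 contributed chromosome 4 from 129105357 to 129105597 with 28 CG in 241 bases. Zfp263 contributed a whole window, chromosome 16 from 3743849 to 3744148, with 20 CG in 300 bases. Henmt1 was the densest, with 31 CG in the 259 bases of chromosome 3 from 108940307 to 108940565. Ccdc110 was sparse, with 7 CG in the 185 bases of chromosome 8 from 45934484 to 45934668.

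The 13 promoter windows held a median of 20 CG, from 7 to 39, against 7 over all 32851 windows. All 13 reached that overall median. These windows were reached only through regions chosen for their number of CpG sites, and RRBS itself covers mostly CpG-rich sequence. A high CG count is thus favoured by that choice and by the assay, so the comparison with all windows is a description only. The GC box, GGGCGG or CCGCCC, the sequence that Sp1 family factors bind, was in 7 of the 13 windows and in 35.7% of all windows. It contains CG itself, so the same choice bears on its count. TATAAA, on either strand, was in 1 of the 13, that of Ccdc110, and in 13.6% of all. CCGG, the MspI site, was in all 13 and in 52.8% of all windows, and the assay itself requires it near a measured CpG. These matches are letters in a window and say nothing of binding.

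Tumors of the arsenite line had higher methylation at 99 of the 203 CpG-dense regions and lower methylation at 104 (positive share 48.8%, exact 95% Clopper-Pearson interval 41.7 to 55.9%). Over all 1547 tumor regions the positive share was 68.7%. In the 1344 regions with fewer than 10 CpG sites it was 71.7% (69.2 to 74.1%), from 964 positive regions. Gains and losses were thus nearly balanced in dense regions, while gains prevailed in sparse ones. These intervals cover counting error only. All regions come from the same 6 samples and are not replicates, so the shares are a description without a test.

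The positive share was lower in the bins of higher CpG number, which were drawn after the values were seen. It was 75.05% in the 521 regions of 3 sites, 71.2% in the 326 regions of 4, and 68.6% in both the 293 regions of 5 to 6 and the 204 regions of 7 to 9 sites. Among the dense regions it was 52.5% at 10 to 14 sites (53 of 101) and 54.5% at 15 to 19 (24 of 44). At 20 to 29 sites it was 40% (10 of 25), and at 30 or more it was 36.4% (12 of 33). The intervals of the last 4 bins overlap one another, from 20.4 to 54.9% for the highest bin and from 42.3 to 62.5% for 10 to 14 sites. No order among the dense bins holds beyond counting error.

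**Figure D1:**
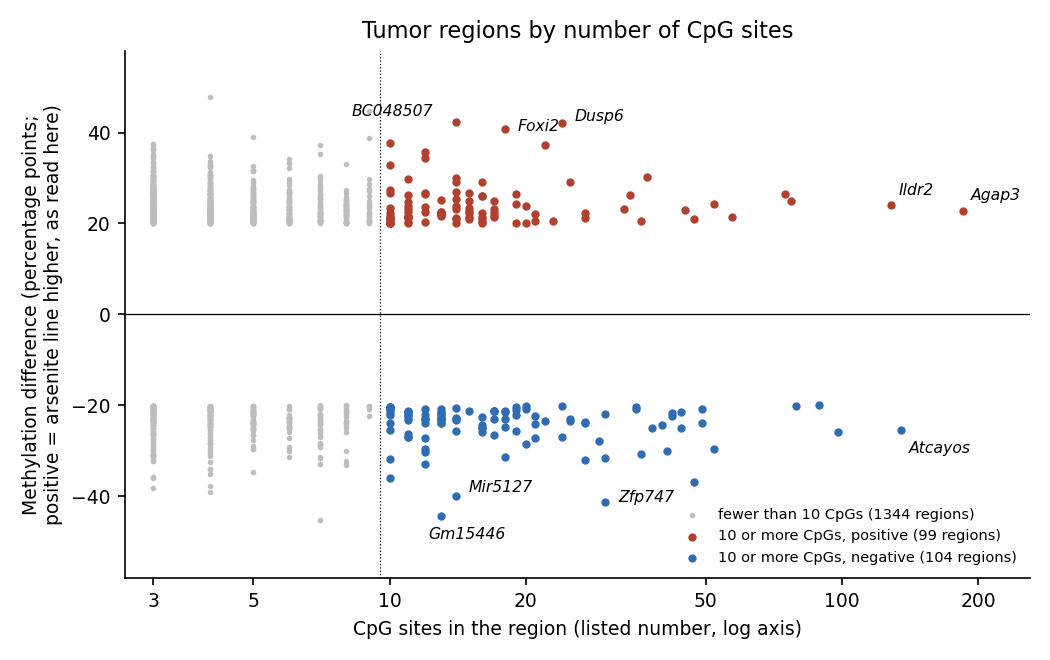
Methylation difference of each tumor region in percentage points (vertical axis) against its listed number of CpG sites (horizontal log axis). Grey points are the 1344 regions with fewer than 10 sites, and the 99 positive and 104 negative dense regions are coloured, with no point between -20 and 20 points because the list holds none.

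**Figure D2:**
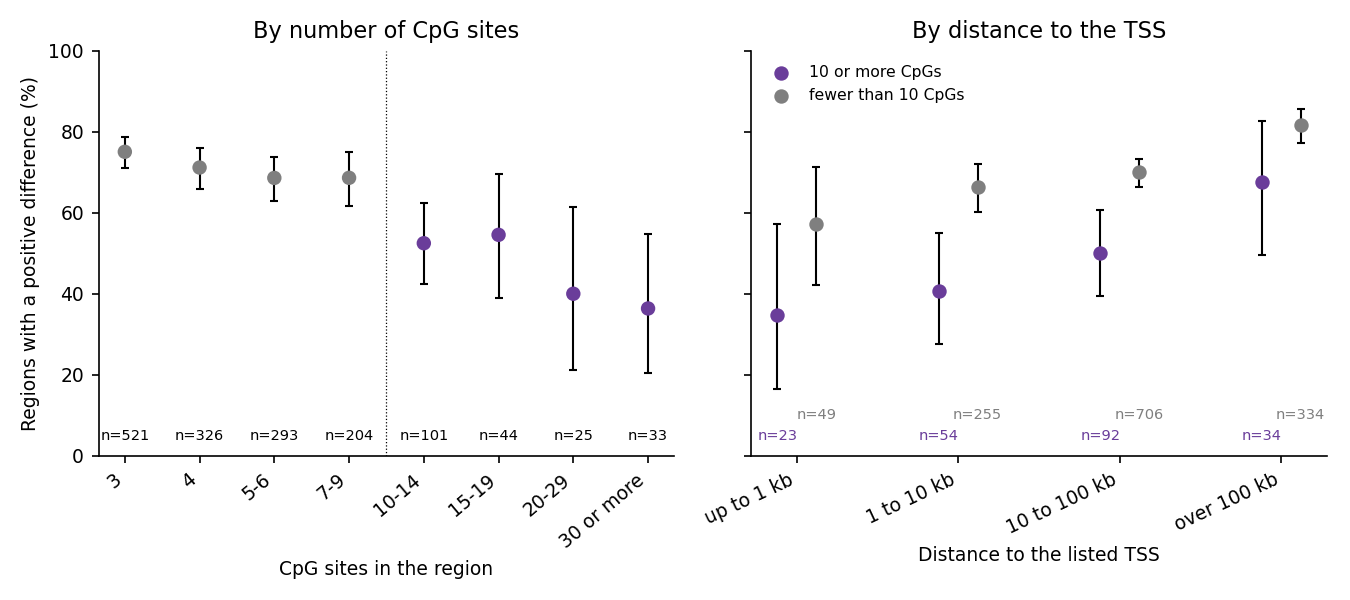
Share of regions with a positive difference by number of CpG sites (left) and by distance to the listed start site (right). Points are shares and bars are exact 95% intervals, which cover counting error only, and the share falls from 75.05% at 3 sites to 36.4% at 30 or more.

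Next to the limit, the counts are small. Of the 27 regions with exactly 10 sites, 16 were positive (59.3%), and of the 30 with exactly 9 sites, 25 were positive (83.3%), above the 68.6% of the whole bin of 7 to 9 sites. At 10 sites the smallest differences in the authors' deposited table were 20.01 points near Ntng2, 20.07 near Aplnr and 20.1 near Tsn. The largest were 33.0 near Fry, -36.03 near Lrfn2 and 37.6 near Cnksr2. At 9 sites they ran from 20.01 near Tmem132e, -20.08 near Tmem150cos and 20.1 near 1700003M07Rik to 29.9 near Insig2, 38.9 near Gm6260 and 44.7 near Colgalt2. The sizes on both sides of the limit thus overlapped over most of their range.

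Among closely spaced regions, the share also differed between dense and sparse regions. Of the 42 dense regions with at least 10 CpG sites per 100 bp, 20 were positive (47.6%). Of the 169 regions that also reached this spacing but had fewer than 10 sites, 115 were positive (68.0%). Only the lower limit of spacing was shared. The dense set had a median of 12.2 sites per 100 bp and 119.5 bp, the sparse set 15 sites per 100 bp and 24 bp. Spacing and number of sites were thus not separated. Within the dense regions the split by spacing was smaller. There, 47 of the 101 above the median spacing were positive (46.5%), and 52 of the 102 at or below it (51.0%).

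The size of the differences was alike in dense and sparse regions. The median was 22.5 points for positive and -23.1 for negative dense regions, against 23.0 and -23.1 in the sparse ones. A difference of at least 25 points was listed for 62 dense regions (30.5%), 29 positive and 33 negative, against 29% of all tumor regions. At least 30 points was reached by 22. The inferred minimum of 20 points cuts every group at the same place, and smaller differences were not seen.

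The 10 largest losses were led by a region 26176 bp upstream of Gm15446, at -44.4 points with 10 of 13 sites called as differentially methylated cytosines (DMCs). The region listed for Zfp747, a zinc finger gene, followed at -41.3 points, and all 30 of its sites on chromosome 7 from 127363778 to 127364360 were DMCs. Mir5127, a microRNA gene, was nearest to a region at -40.03 points with 11 of 14 DMCs. Gm16880 was nearest to a region at -36.9 points with 38 of 47 DMCs, which lay inside the span of Gm8762. Lrfn2, which encodes a synaptic adhesion protein, was nearest to a region at -36.03 points, but 193879 bp away.

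The other 5 losses lay between -31.3 and -33.0 points. Ptprc encodes CD45, the phosphatase carried by leukocytes, and all 12 sites of a region inside the gene, on chromosome 1 from 138136441 to 138136632, were DMCs (-33.0 points). Csnk1e, casein kinase 1 epsilon of the circadian clock, had 20 of 27 DMCs (-32.1 points) 28833 bp upstream. Cmtm8 had 8 of 10 (-31.8 points) 9572 bp upstream. Las1l, on X and needed for ribosome production, had 17 of 30 (-31.5 points), and 1700017J07Rik had 14 of 18 (-31.3 points).

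The 10 largest gains were led by BC048507, at 42.3 points with 12 of 14 DMCs inside the gene, 357 bp from its start. Dusp6, the phosphatase that switches off ERK kinases, was nearest to a region at 42.1 points with 22 of 24 DMCs, 58831 bp upstream. Foxi2, a forkhead transcription factor gene, had 14 of 18 DMCs at 40.7 points, inside the gene and 1476 bp from its start, on chromosome 7 from 135411843 to 135411960. Cnksr2, a scaffold of Ras signalling on X, had 9 of 10 DMCs at 37.6 points, 69449 bp upstream. Cenpf, a kinetochore protein gene, had 17 of 22 at 37.3 points, 105702 bp downstream.

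The remaining gains ran from 29.97 to 35.8 points. Crnde, a long non-coding RNA gene, had 10 of 12 DMCs at 35.8 points, 90225 bp away. Usp20, a deubiquitinase gene, had 10 of 12 at 34.3 points in the stretch printed above, 13416 bp downstream of the listed start. Fry had 7 of 10 at 33.0 points, Lzts3 had 26 of 37 at 30.1 points, and Kank1, an adaptor that restrains actin assembly, had 8 of 14 at 29.97 points, inside the span of Dock8. Of these 10 gains and 10 losses, those of BC048507 and Foxi2 lay within 2 kb of the listed start and the other 18 farther away.

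The share of sites called as DMCs was a median of 40% in dense and in sparse regions. Pooled over regions, 2004 of 4402 sites were DMCs in dense regions (45.5%), against 43.7% in sparse ones. Because dense regions have more sites, their calls rested on more DMCs. At least 2 DMCs were listed for 201 dense regions, against 64.4% of all tumor regions, and at least 4 for 180, against 19.1%. Of those 180, 84 were positive (46.7%), while of the 116 sparse regions with at least 4 DMCs, 81 were positive (69.8%). A single DMC supported 548 sparse regions and 2 dense ones.

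Those 2 regions had the lowest shares of DMCs. Mir341, a microRNA inside Rian, had 1 DMC of 12 sites (8.33%) at -20.9 points. Htatip2 had 1 of 10 (10%) at 20.2 points, inside the gene. Klhl25 had 2 of 16 (12.5%), Gm20871 on Y had 14.3%, and Rab10os and Mark1 each had 16.7%. At the other end, Zfp747 and Ptprc were the regions in which every site was a DMC, and both were losses. At least 50% of sites were DMCs in 70 dense regions, 31 of them positive, against 40.2% of all tumor regions.

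**Figure D3:**
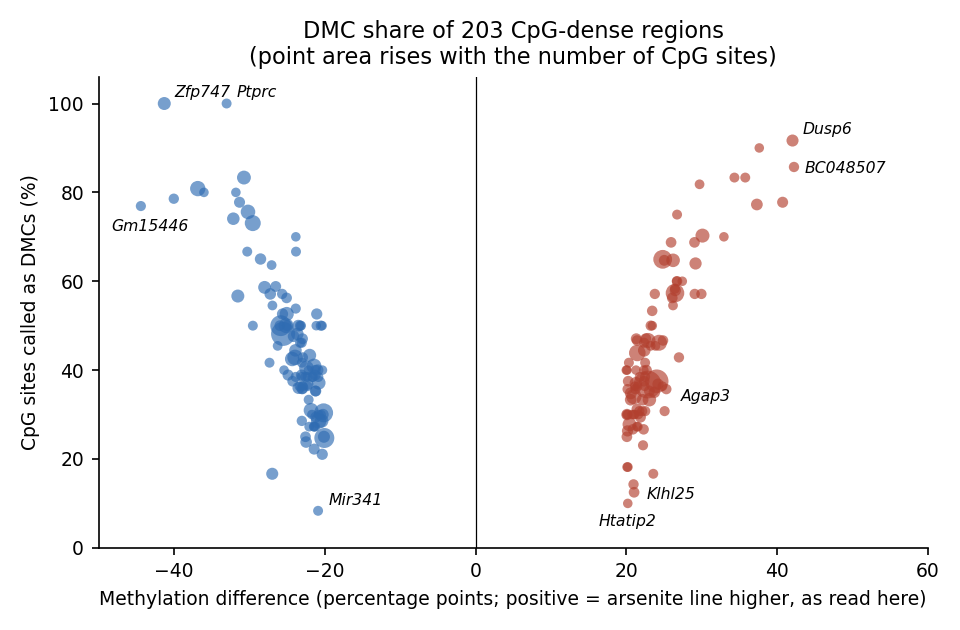
Share of CpG sites called as DMCs (vertical axis, percent) against the methylation difference in percentage points (horizontal axis) for the 203 dense regions. Point area rises with the number of CpG sites, red is positive and blue negative, and the share rises with the size of the difference on both sides, from 8.33% at Mir341 to 100% at Zfp747 and Ptprc.

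Across the 203 regions the size of the difference and the DMC share rose together (Spearman's rho 0.77, Pearson's r 0.83). Both come from the same samples and reads, and a region's difference is computed from the sites counted, so the relation is given as a description. The number of sites was only weakly related to the size of the difference (rho 0.12) and to the DMC share (rho 0.08).

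Dense regions were longer, with a median of 263 bp (71 to 1694 bp), against 123.5 bp for sparse regions. They held a median of 15 sites, against 4, and a median of 6.28 sites per 100 bp (quartiles 4.37 and 9.35), against 3.70. Number of sites and length rose together (rho 0.58 over the 203 regions), as they must in part, since a region can hold more sites only by being longer or denser. Spacing reached 31.4 sites per 100 bp near Atcayos and was as low as 1.87 near Srp9.

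The 5 most closely spaced regions were those of Atcayos (31.4), 2210016F16Rik (26.3), Rragc (24.1), Ildr2 (18.9) and Agap3 (17.9 sites per 100 bp). Atcayos and Rragc were losses, and the other 3 were gains. Among the most widely spaced were those of Srp9 (1.87), Tbca (1.99), Psd2 (2.05) and Mycn (2.06 sites per 100 bp). A count of 10 sites can thus be spread thinly over a region, and the name CpG-dense refers to the number of listed sites per region. Listed sites need not be every CpG of the sequence, so wide spacing does not show a CpG-poor stretch. Of the 10 regions wholly inside a promoter window, 3 had a listed number within 1 of 2 per CG.

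The region with the most sites was inside Agap3, an Arf GTPase-activating protein gene, with 68 DMCs of 185 sites over chromosome 5 from 24474244 to 24475276, at 22.8 points. Atcayos followed with 65 of 135 (-25.5 points), inside Dapk3, a kinase of the death-associated family. Ildr2 had 48 of 128 (24.04 points), and Mkx, the homeobox gene Mohawk of tendon cells, had 49 of 98 (-25.8 points). Nans had 22 of 89 (-20.1 points), inside Trim14.

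Colec12, a scavenger receptor gene, had 24 of 79 (-20.2 points), Zfp263 had 50 of 77 (24.8 points) and Oprd1, the delta opioid receptor gene, had 43 of 75 (26.5 points). Rsph3b had 25 of 57 (21.5 points), Tmem54 had 38 of 52 (-29.6 points) and Fgfr1, a fibroblast growth factor receptor gene, had 24 of 52 (24.3 points), 3336 bp upstream. The largest regions thus went both ways, and all but that of Fgfr1 lay inside a gene span.

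**Figure D4:**
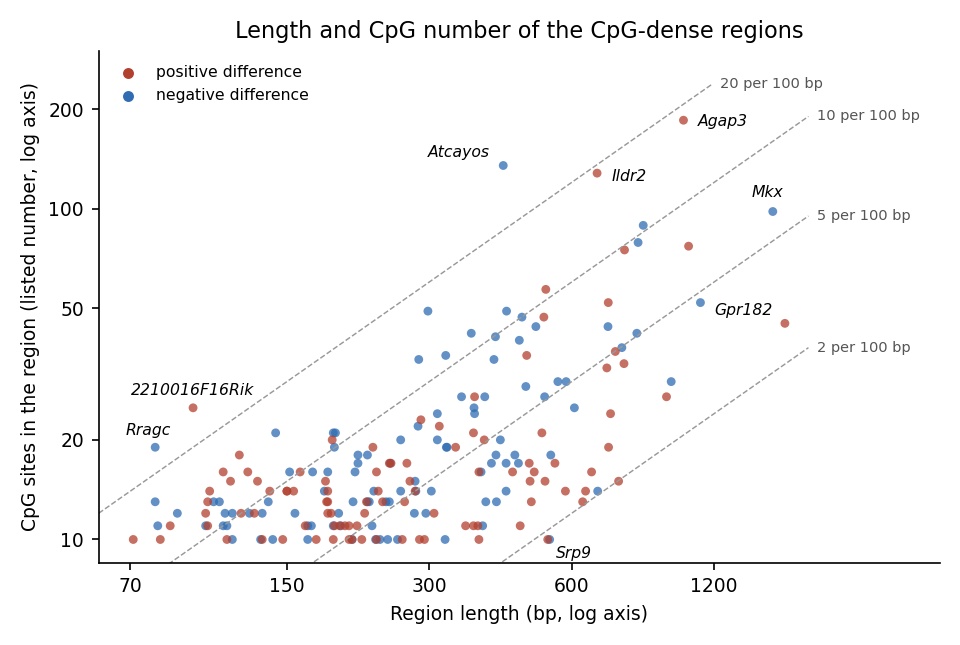
Listed number of CpG sites (vertical log axis) against region length in bp (horizontal log axis) for the 203 dense regions, red positive and blue negative. Dashed lines mark 2, 5, 10 and 20 sites per 100 bp, and the regions spread from about the lowest line, as at Srp9 (1.87), to 31.4 at Atcayos with both colours throughout.

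Dense regions lay closer to transcription start sites (TSS) than sparse ones. Within 1 kb of the listed TSS were 23 of the 203 (11.3%), against 4.65% of all tumor regions and 3.65% of the sparse ones. Within 10 kb were 77 (37.9%), against 24.6%, and beyond 100 kb were 34 (16.7%), against 23.8%. The median distance was 19705 bp for dense and 34662 bp for sparse regions. A longer region touches a TSS more easily, and the part of length in these shares was not tested. Of the 203, 85 lay upstream and 109 downstream, and 9 lay across the TSS itself, against 2 sparse regions.

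The positive share of dense regions was 34.8% within 1 kb (8 of 23, interval 16.4 to 57.3%) and 50.6% farther away (91 of 180, interval 43.0 to 58.1%). By distance it was 40.7% between 1 and 10 kb (22 of 54), 50% between 10 and 100 kb (46 of 92) and 67.6% beyond 100 kb (23 of 34). In sparse regions the 4 shares were 57.1%, 66.3%, 69.97% and 81.7% from near to far. Losses were thus the more frequent direction in dense regions near a TSS, and the share was lower than in sparse regions in each of the 4 ranges. Among the dense regions of at least 25 points the order near a TSS turned over, with a positive share 3.70 percentage points higher within 1 kb than beyond, on 8 near regions. The share within 1 kb minus that beyond was -15.8 points (95% interval by the Wilson-based Newcombe method -33.3 to 5.80), and with 5 kb as the limit it was -15.6 points (-29.5 to -0.194). With 2 kb as the limit it was -17.5 points (-32.9 to 0.686). Counting error alone thus covers 0 at 1 kb and at 2 kb and narrowly does not at 5 kb. All regions come from the same samples, so none of these intervals is a test.

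Of the 9 regions across a TSS, 5 were gains and 4 were losses. The losses were Tmem223, where 31 of 41 sites were DMCs (-30.2 points), Tmem54 (-29.6 points), Dnah7a, an axonemal dynein gene, with 5 of 21 (-22.5 points), and Colec12 (-20.2 points). The gains were Ccdc110 with 11 of 16 (25.9 points), Gngt2, a G-protein gamma subunit gene, with 4 of 13 (25.1 points), and Zfp263 (24.8 points). Rsph3b, a radial spoke gene of cilia, followed at 21.5 points, and Henmt1, the methyltransferase of piRNAs in the germ line, with 16 of 47 DMCs at 21.0 points. The stretches printed above for Tmem54, Zfp263, Ccdc110 and Henmt1 are parts of these regions. Both Tmem54, at 4.63 sites per 100 bp over 1123 bp, and Zfp263, at 7.26 over 1060 bp, extend well past the promoter window.

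The other 14 regions within 1 kb were 3 gains and 11 losses. The gains were BC048507, 2210016F16Rik (29.2 points, 16 of 25 DMCs, 52 bp upstream and outside any gene span) and Gpr182, an endothelial receptor gene (22.9 points, 21 of 45 DMCs over 1694 bp). The losses ran from -28.5 points at 1700048O20Rik to -20.8 at Kcng1, a potassium channel subunit gene. Between them lay Rab10os, Zfp572, Frmd4a, Lhcgr, D030068K23Rik, Taf7l, Ccdc114, Slc6a7 and Tor4a. Lhcgr is the luteinizing hormone receptor gene, Taf7l a germ-cell subunit of the TFIID complex, and Slc6a7 a proline transporter gene of the brain.

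**Figure D5:**
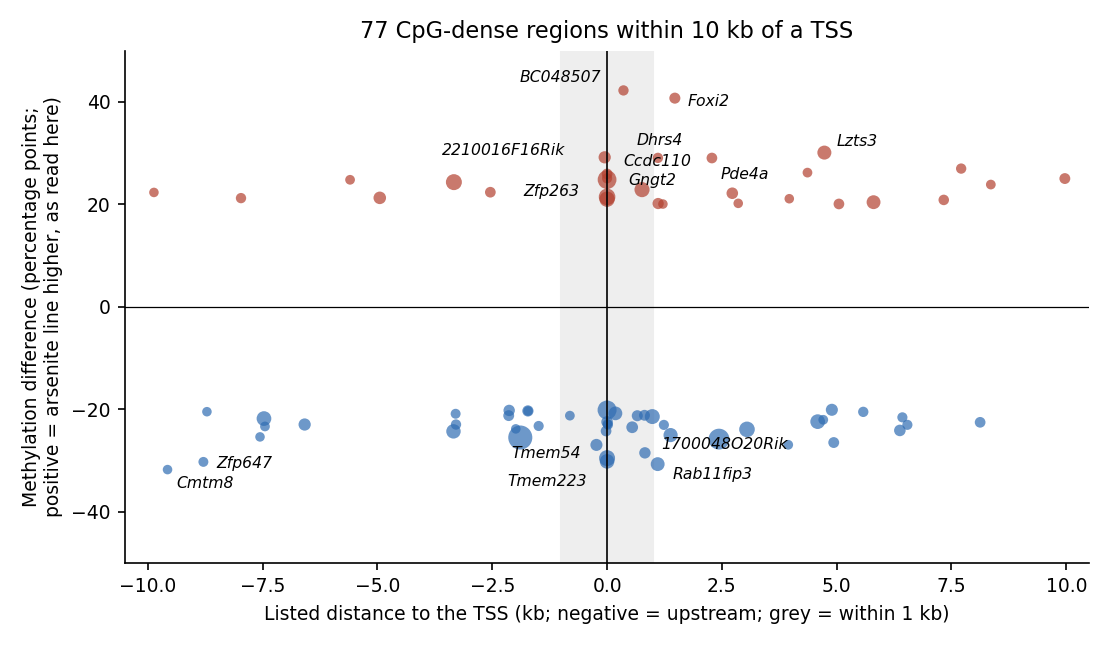
Methylation difference in percentage points (vertical axis) against listed distance to the TSS in kb (horizontal axis, negative upstream) for the 77 dense regions within 10 kb. Point area rises with the number of CpG sites, grey marks 1 kb on either side, and 15 of the 23 regions in the grey band are losses.

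RefSeq gene spans covered 132 of the 203 dense regions, of which 67 were positive, against 55.1% of all tumor regions inside a span. The other 71 lay outside any span, with 32 positive. In 83 the span was that of the listed gene (43 positive), so the nearest start often belonged to another gene. The table used holds spans only, so exons and introns could not be assigned. The nearest gene was not protein coding for 43 regions, 19 of them positive, against 18.2% of all tumor regions, and it was a microRNA gene for 12, of which 6 were positive. Of the sparse regions, 48 were nearest to a microRNA gene, with 34 positive. Zfp and Zscan zinc finger genes were nearest for 7 dense regions, with 3 positive, and for 8 sparse ones, with 5 positive.

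On X, 1 of the 7 dense regions was positive, the one near Cnksr2, while 43 of the 65 sparse regions there were. On Y, 1 of 2 dense and 10 of 11 sparse regions were positive. Chromosome 5 held 23 dense regions, 13 of them positive, and 126 sparse ones, 99 of them positive. On the autosomes alone 50% of the 194 dense regions were positive, so the X regions shift the share little.

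Developmental transcription factor families, whose promoters and surroundings are often CpG islands, supplied 13 of the 203 dense regions and 60 of all 1547. In the dense regions 7 were gains and 6 losses, and in all tumor regions 44 were gains and 16 losses. These counts and those of the gene groups below refer to fixed lists of names, which are not complete. The homeobox gene Mkx, for example, was on none of them. Beside Foxi2, gains were nearest to Pax2, a kidney and midbrain regulator (29.7 points, 9 of 11 DMCs, 58402 bp away), Sall3 (26.2 points, 22 of 34) and Foxn4 (26.2 points, 6 of 11). The other gains were nearest to Tcf4 (23.8 points, inside the gene but 225409 bp from the listed TSS), Olig2 (23.5 points, 17330 bp away) and Gata2, of blood stem cells (20.4 points, 10 of 36). The losses included regions nearest to Foxd3 (-24.9 points, but 210571 bp away), Irx3 (-23.6 points, but 165431 bp away) and Irx4 (-20.5 points, 8714 bp away), and 2 regions upstream of Tbx3. Of the 13, 6 lay within 10 kb of the listed TSS.

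The Tbx3 regions were on chromosome 5, at -23.1 points 13860 bp and at -21.8 points 7472 bp upstream, with 7 of 18 and 13 of 42 DMCs, and both lay inside Tbx3os1. Tbx3 is a T-box factor of limb and liver development. A pair of dense regions was listed for 3 further genes. The pair of G530011O06Rik on X was lost at -23.8 and -23.0 points, and the pair of Tmem233 was gained at 21.2 and 21.9 points, both inside Ccdc60. The pair of Gm16880 went opposite ways, at -36.9 and 21.3 points.

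All 3 dense regions near Wnt pathway genes were losses, and in all tumor regions 7 of 17 were gains. Wnt7b and Wnt8a are ligands and Fzd9 is a receptor of the pathway, which governs liver zonation. Wnt7b had 4 of 11 DMCs at -22.3 points inside the gene, Wnt8a had 6 of 24 at -20.1 points, and Fzd9 had 5 of 14 at -23.0 points 3290 bp upstream. The 4 dense regions near transporter genes were losses too, while 30 of 41 were gains over all tumor regions. Among them were Slc22a7, an organic anion transporter gene of liver and kidney (-23.0 points, inside Ttbk1), Slc6a7 (-21.3 points) and Slc14a2, a urea transporter gene of the kidney (-22.2 points).

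Near oncogenes and tumor suppressors lay 3 dense regions, against 22 of all tumor regions. Beside Tmem54 and Fgfr1 this was Mycn, a MYC family gene, at -25.7 points with 8 of 14 DMCs, 260835 bp away. Tmem54 was on that list, which was made with earlier results known, although it is not an established oncogene. Of ERK feedback genes, the dense region nearest to Dusp6 was a gain. A sparse region nearest to Dusp6, 16900 bp downstream, had -20.97 points with 2 of 5 DMCs. Dusp9, also a MAP kinase phosphatase gene, had a dense region at -21.3 points with 6 of 17 DMCs, 2142 bp upstream on X. Of imprinted genes only Dlk1, expressed from the paternal copy, was listed, at -24.1 points with 10 of 21 DMCs inside the gene, on chromosome 12 from 109459831 to 109460019. The region of Mir341, inside Rian, lies in the same imprinted domain and was also negative, with its single DMC.

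Genes of the ion channel and neurotransmitter receptor list were nearest to 3 dense regions of 47 in all. These were Kcnip1 (26.5 points), Kcng1 (-20.8 points) and Scn10a (-21.2 points, inside Scn11a). Genes of the cadherin, protocadherin and integrin list were nearest to 2 of 21, Itgb3 (21.4 points) and Dsg2 (-21.7 points). The only dense region near a gene of the histone, chromatin and DNA methylation list was that of H2afy2, which encodes a macroH2A histone (23.7 points). It lay inside Col13a1, and sparse regions nearest to H2afy2 had 26.5 and -36.1 points. None of the 6 tumor regions near hepatocyte function genes was dense, and neither was either of the 2 near genes of arsenic metabolism and oxidative stress.

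Genes on the fixed lists for other cells of the liver were nearest to 6 dense regions. The lists are not complete, so this is no count of all such genes. Lag3 (-25.1 points, 20 of 38 DMCs), Skap1 (22.4 points) and Aplnr (20.1 points), each inside its gene, were on neither list. Of the 24 tumor regions near genes of the leukocyte marker and trafficking list, 16 of them gains, 4 were dense. Beside Ptprc these were Il12rb1, a subunit of the interleukin-12 receptor (-22.3 points, inside the gene), Cd151 (-20.2 points, 2132 bp upstream) and Il7r (21.6 points, 27725 bp upstream). Of the 21 near genes of the endothelial, stellate and bile duct list, 13 of them gains, 2 were dense, and both were gains. These were Gpr182 and Kdr, the VEGF receptor gene, the latter at 25.3 points but 142664 bp away. A nearest gene is a position on the map and no measure of its expression, and the part of cell mixture in these differences was not tested.

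Another tumor region lay within 10 kb of 12 dense regions. It had the same sign in 9 and the opposite sign in 3, against 27 same and 19 opposite among the 46 sparse regions with such a neighbour. Only the region near Usp20 had one within 1 kb, of the same sign.

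Overlap with the lists of the other tissues was counted for the dense regions only. The share over all tumor regions was not computed, so the count cannot be called low or high. Of the 203, 3 overlapped a region of the non-tumor list and 0 a region of the normal list, whose totals of 57 and 107 regions limit such overlaps. Ccdc110, across its TSS, was a gain in both, at 25.9 points with 11 of 16 DMCs in tumors and 20.04 points with 3 of 14 in non-tumor liver. The region 1988 bp upstream of G530011O06Rik was a loss in both, at -23.8 points with 7 of 10 DMCs and -24.5 points with 5 of 10. Gm15446 went opposite ways, at -44.4 points in tumors and 21.2 points in non-tumor liver, where 3 of 4 sites were DMCs. These comparisons use different samples of both lines, and the difference between tissues was not tested.

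Regions of 10 or more sites made up 9 of 57 in the non-tumor list and 3 of 107 in the normal list, beside 203 of 1547 in the tumor list. In non-tumor liver 6 of 9 were positive, among them Igf2r, an imprinted gene, across its TSS (20.4 points, 3 of 34 DMCs). In normal liver all 3 were negative, at Csnk1e (-29.3 points), Peg3, an imprinted gene (-24.0 points), and Nol3 (-22.3 points). Csnk1e was thus listed with a loss in a dense region in normal liver, 8509 bp downstream of its start, and in tumors, 28833 bp upstream, at places that do not overlap.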

How the data were processed

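DNA of 12 mouse liver samples was measured by RRBS, in 4 groups of 3. Per the submitters' processing notes, the authors used Trim Galore, Bismark, methylKit and bedtools 2.25.0 on mm10. Of the region caller, its threshold and the coverage minimum, the sources used here state nothing. The authors' deposited lists give, per region, a difference in percentage points, numbers of CpG sites and DMCs, and the nearest TSS; they hold no p-values, counts or per-sample values.

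Regions of at least 10 sites were taken with Python 3.11.15, pandas 2.3.3, numpy 2.4.6 and scipy 1.17.1, and compared with the rest by counts and medians, without tests, since regions are not replicates. The counting was tested on simulated data. In 21 of 21 region starts inside RefSeq windows the base after the listed start was in a CpG, so printed starts are the listed ones plus 1, and lengths are as listed. Gene symbols came from the lists, and 199 of 203 accessions matched RefSeq GRCm38.p6 after leading zeros were restored (all 203 with symbols). Named genes were the 10 largest gains and losses, the 10 regions with most sites, those within 1 kb of a TSS, members of 13 gene lists, overlaps with the other lists, repeated genes, and the extremes of DMC share and spacing. Some regions that this rule names are not reported here. The regions and gene lists were chosen with earlier results of these data known.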

Additional observations from a re-analysis of the deposited data

How the results depend on the processing

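Of 40 recomputed values over 10 settings, 30 stayed close to those reported. Close meant within counting error, except for the overlap count, which has no interval and was judged by its ratio to the main count. Some of the 30 could hardly move. Counting regions within 1 kb of each other once left the same 203 regions, and asking for at least 2 DMCs left 201. With at least 8 CpG sites the positive share was 57.7% and the median spacing 5.67 sites per 100 bp. With at least 15 sites the spacing was 6.89 and 17.6% of regions lay within 1 kb of a TSS. The same number of regions taken by spacing, from those of at least 5 sites, had a positive share of 56.2% and a spacing of 9.60. Counting 2 kb or 5 kb as near gave shares of 17.2% and 27.6%, by construction. At 25 points or more the median DMC share was 61.8%, and the positive share near a TSS minus that farther away, -15.8 points over all dense regions, reversed to 3.70 points; the cause was not tested. Overlap with the other lists stayed at 3 regions when 50% of the shorter region had to be shared. No paired analysis was possible because the lists hold no per-sample values, although AATn and AATt labels share the numbers 5, 9 and 13. For the same reason leaving out a replicate and a stricter p-value limit were not run. Unknown depth limits every value.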
